A study of Mus musculus with 10 samples.

Results

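The 33 interferon response genes described here are transcription factors, antiviral effectors, RNA sensors, GTPases, antigen-processing genes and cell-death genes that interferon induces in many cell types. They were taken by name, not by their values, from the 30295 gene rows of the deposited tables, and all 33 were among the 15839 genes tested. RNA was measured in 10 libraries of intestinal stem cells of C57Bl/6 mice, each from a different animal, after fluorescence sorting. Cells came either from Lgr5-EGFP-IRES-CreER mice, in which EGFP follows the Lgr5 gene of active crypt base stem cells, or from Hopx-CreER::LSL-tdTomato mice, in which Cre driven from Hopx switches on tdTomato and so marks reserve stem cells and any of their descendants still present. Mice had been fed ad libitum (AL) or had been Calorie Restricted (CR), giving 3 Lgr5 AL, 3 Lgr5 CR, 2 Hopx AL and 2 Hopx CR libraries. Each of 5 isolations held 1 AL and 1 CR animal, with Lgr5 cells in isolations 1 to 3 and Hopx cells in isolations 4 and 5, so that isolation and reporter line cannot be told apart. The sources used here do not state age, sex, the degree and length of the restriction, or the time after Cre induction.

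Interferons are secreted proteins that bind receptors on the cell surface. Type I and type III interferons signal through JAK1 and TYK2 to a complex with STAT2 and IRF9 that binds interferon-stimulated response elements, whereas interferon gamma signals through JAK1 and JAK2 and acts at gamma-activated sites. The induced genes block viral replication, sense foreign RNA and supply peptides for MHC class I, and many are transcribed at a basal level in intestinal epithelium and in the lymphocytes that lie within it.

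Promoter sequences show which of these genes carry the classical elements next to their start. RefSeq windows (GRCm38.p6) from 250 bases before to 50 bases after the transcription start were found for 27 of the 33 genes, and not used here were Usp18, Oas2, Mx1, Mx2, Dhx58 and Zbp1. The start base of a gene's first window was the RefSeq gene start for 18 of these 27 genes. Positions below count from the start of the window itself. The core of the interferon-stimulated response element was searched as GAAA, any 2 bases, then GAAA on either strand, and matches may overlap each other. It occurred in the windows of 16 of the 27 genes (59.3%), against 3.99% of the 27025 gene symbols with a window. A gamma-activated site was searched as TTC, any 3 bases, then GAA, which reads the same on both strands and may overlap the first motif. It occurred in 9 of the 27 (33.3%), against 9.55% of all symbols. Neither was found in the windows of Irf7, Irf9, Oasl1, Oasl2, Tap1, Psmb9 or Xaf1. A match is a description of the letters and not a binding site shown in these cells.

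The following sequences give the 150 bases before the start, 5′ to 3′ on the strand of the gene, for genes whose values are described below. Capitals mark the response element core only, and in Irf1 the gamma-activated site; the gamma-activated sites of Igtp and Irgm2 are left in lower case, and that of Bst2, from -136 to -128, is in capitals only where it overlaps the core.
Bst2 (chr8:71537473-71537622, minus strand): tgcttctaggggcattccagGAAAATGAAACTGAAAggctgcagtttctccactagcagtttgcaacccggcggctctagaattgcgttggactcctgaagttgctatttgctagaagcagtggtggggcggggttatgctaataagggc
Rsad2 (chr12:26456453-26456602, minus strand): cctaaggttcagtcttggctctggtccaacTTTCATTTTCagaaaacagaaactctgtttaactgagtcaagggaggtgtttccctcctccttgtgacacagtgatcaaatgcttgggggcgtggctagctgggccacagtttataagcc
Isg15 (chr4:156200819-156200968, minus strand): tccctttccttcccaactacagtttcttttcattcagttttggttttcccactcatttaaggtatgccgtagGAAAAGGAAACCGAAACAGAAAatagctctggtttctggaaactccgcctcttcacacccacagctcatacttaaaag
Ifit1 (chr19:34640739-34640888, plus strand): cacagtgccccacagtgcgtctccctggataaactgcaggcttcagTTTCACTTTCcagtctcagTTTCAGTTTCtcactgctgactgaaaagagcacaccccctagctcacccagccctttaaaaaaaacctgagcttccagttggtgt
Igtp (chr11:58199406-58199555, plus strand): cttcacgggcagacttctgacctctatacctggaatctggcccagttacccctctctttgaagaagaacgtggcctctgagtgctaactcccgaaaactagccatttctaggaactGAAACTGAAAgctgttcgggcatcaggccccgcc
Irgm2 (chr11:58214827-58214976, plus strand): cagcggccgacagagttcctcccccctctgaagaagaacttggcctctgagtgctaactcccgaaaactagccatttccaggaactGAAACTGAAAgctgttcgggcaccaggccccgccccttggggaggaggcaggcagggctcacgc
Irf1 (chr11:53769864-53770013, plus strand): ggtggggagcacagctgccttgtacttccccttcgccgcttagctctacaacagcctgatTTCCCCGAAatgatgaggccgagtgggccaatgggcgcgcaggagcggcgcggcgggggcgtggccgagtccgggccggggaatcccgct
Bst2 and Rsad2 are the members whose diet groups did not overlap in either population in CPM. Isg15 and Ifit1 are classical targets, Igtp and Irgm2 are neighbouring GTPase genes, and Irf1 is an interferon gamma target. In Isg15 the capitals cover 3 overlapping matches from -78 to -57, in Bst2 a pair from -130 to -115, and in Ifit1 separate matches start at -104 and -85.

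**Figure D1:**
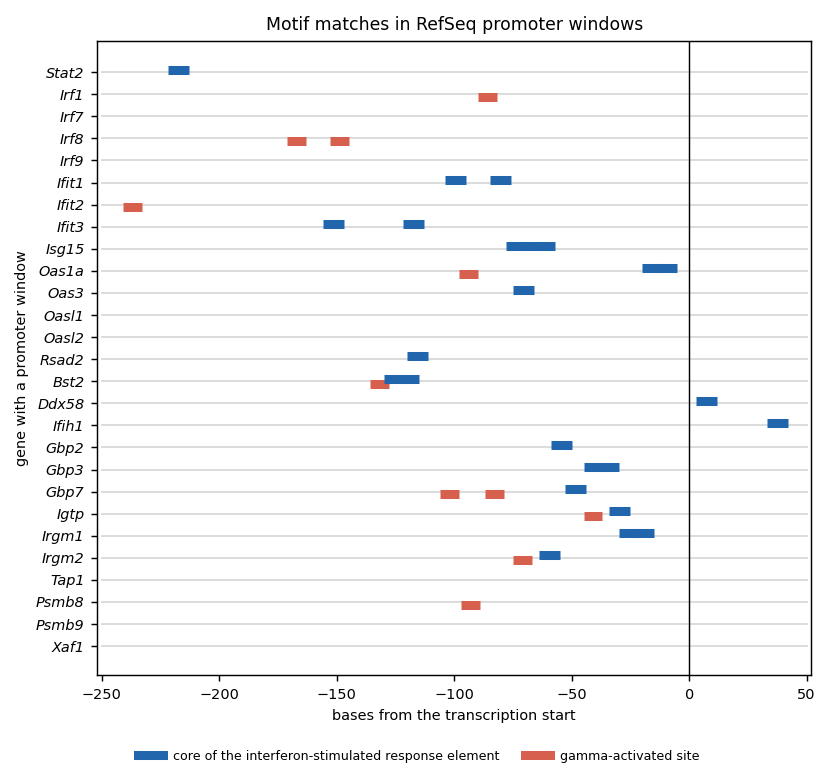
Matches to the response element core (blue) and to the gamma-activated site (red) in the promoter windows of 27 interferon response genes, by distance in bases from the transcription start, with genes that have several windows drawn on 1 line. Matches lie before the start except those of Ddx58 and Ifih1, which lie after it, and 7 genes have none.

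Library totals ran from 20251405 (Lgr5 AL 3) to 87215705 estimated counts (Hopx CR 1), and log2 CPM of replicate libraries correlated at 0.957 to 0.982. Lowly expressed interferon response genes were still counted, with at least 3 counts for every member in every library. The SMART-Seq v4 and Nextera XT kits used carry no UMIs, so amplified copies are counted, and keep no strand information. Members with near-identical copies (the Oas1, Ifit, Gbp and Irgm families) are uncertain where reads could be split between copies. In a bulk library, fewer cells of a type and less RNA per cell cannot be told apart. Epithelial identity was checked first: Epcam lay between 1408 and 2201 CPM in all libraries, while the T-cell receptor component Cd3e lay between 0.761 and 19.4 CPM. Epcam does not tell epithelial cell types apart. The 8 Paneth-cell markers summed to 16400 to 65000 CPM in the Lgr5 libraries. They summed to 204000 and 82400 CPM in Hopx AL 1 and 2 and to 98200 and 61200 CPM in Hopx CR 1 and 2. Lgr5 lay between 75.02 and 269.9 CPM in the Lgr5 libraries and between 69.3 and 158 CPM in the Hopx libraries. Hopx was no higher in the Hopx libraries (81.9 to 116 CPM) than in the Lgr5 libraries (116 to 154 CPM).

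Levels can be compared between genes in TPM, a unit that corrects for transcript length. Means over the 10 libraries were at least 1 TPM for 26 of the 33 genes, at least 10 TPM for 18 and at least 100 TPM for 2, and the median gene was at 11.6 TPM against 7.66 TPM for all genes tested. The immunoproteasome subunit Psmb8 was highest at 238 to 550.4 TPM, followed by the transcription factors Irf1 (71.9 to 189.6 TPM) and Irf8 (51.8 to 142 TPM). Summed levels by role were 332 to 737 TPM for the 3 antigen-processing genes and 165 to 479 TPM for the 5 transcription factors, against 67.2 to 204 TPM for the 12 antiviral effectors and 11.5 to 32.5 TPM for the 3 RNA sensors. Ifit2, Mx1, Mx2, Oas2, Rsad2, Gbp2 and Gbp3 had means under 1 TPM. Mx2 was lowest, at 0.0454 to 0.631 TPM.

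**Figure D2:**
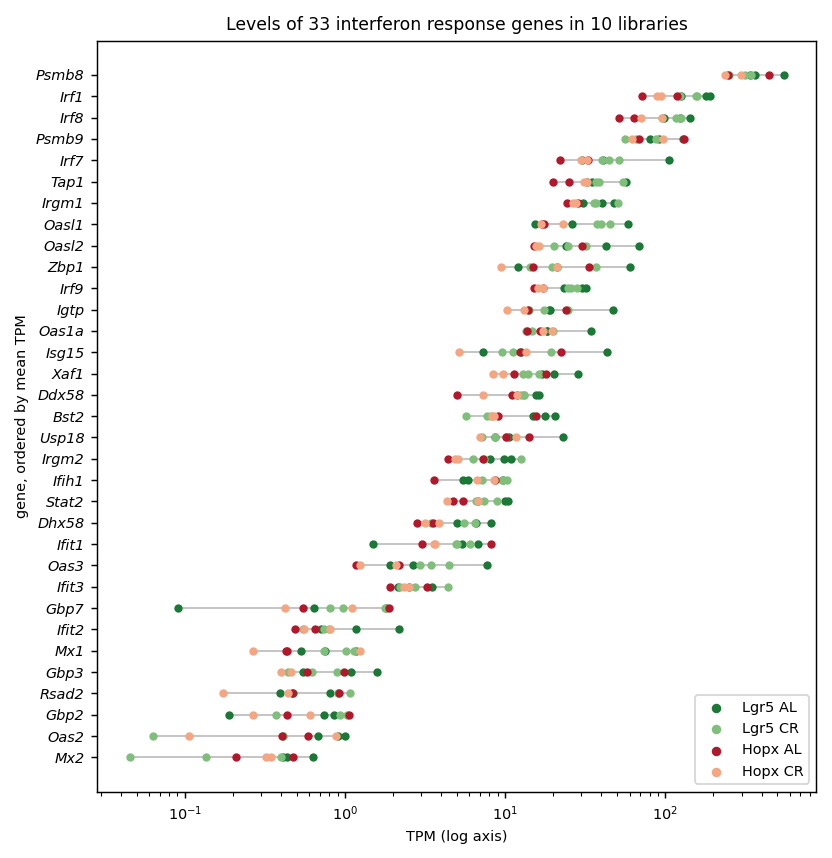
TPM (log axis) of the 33 genes, ordered by their mean, with 1 point for each of the 10 libraries coloured by group. Psmb8 and Irf1 lie at the top and Mx2 at the bottom, and for 19 genes on the CPM scale the highest library is Lgr5 AL 1.

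Calorie restriction in Lgr5 cells was the first comparison: which interferon response genes differed between CR and AL in active stem cells. No member passed the test (edgeR quasi-likelihood test on 4 groups, Benjamini-Hochberg adjusted p under 0.05 over all genes), beside 0.0189% of all genes, and 2 had an unadjusted p under 0.05 (Bst2 and Ifih1), beside 9.78% of all genes. DESeq2 called 1 member, Bst2, beside 2.45% of the genes it gave an adjusted p, and limma on log2(TPM + 1) called none, beside 0.12%. The median log2 fold change was -0.096 over the members and 0.017 over all genes, with 18 of 33 lower in CR; on the TPM scale the medians were -0.17 and -0.11, with 22 lower. Groups did not overlap for Oas2 and Bst2, which were lower in every CR library (7.49% of all genes), or for Mx1, Rsad2 and Ifih1, which were higher in every CR library (7.41%), although the nearest Mx1 values of the groups both round to 1.99 CPM. On the TPM scale the non-overlapping genes were Oas2, Mx2, Bst2 and Xaf1 on the lower side (11.9% of all genes) and Rsad2 on the higher side (3% of all genes).

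The level in 1 AL library stood apart. Lgr5 AL 1 was the highest of all 10 libraries for 19 of the 33 genes (57.6%, beside 10.2% of all genes), and 28 genes stood above their own mean there. Also in CPM, Lgr5 AL 3 was the lowest for 10 (30.3%, beside 15.5%), and Hopx AL 2 was the highest for 7 (21.2%, beside 13.4%). Lgr5 AL 2 and 3 had 5 and 7 genes above their mean in CPM. In TPM Lgr5 AL 3 was the lowest for none of those 10, and it was the highest of all libraries for Irf9, Ddx58, Ifit2, Gbp3 and Oas2. Without Lgr5 AL 1 the members' median was 0.27, and 15 of 33 genes did not overlap and were higher in CR (45.5%, beside 17% of all genes), among them Irf1, Irf7, Irf9, Isg15, Oasl1 and Tap1, while 3 were lower (Ifit2, Oas2 and Bst2, beside 14.3%). That split depended on the scaling: in TPM without Lgr5 AL 1 only Oas3, Oasl1, Rsad2 and Tap1 were higher in every CR library (7.96% of all genes) and Ifit2, Oas2, Mx2, Bst2 and Xaf1 were lower (25.7%). Without Lgr5 AL 1, edgeR called 1 member, Oasl1, with a log2 fold change of 1.34 (adjusted p = 0.0366), beside 0.694% of all genes. Lgr5 AL 1 was picked here for its high values of the members, and Oasl1 was highest in it. Leaving out the highest AL library raises CR minus AL for such genes by construction. The values without it are therefore no separate evidence on diet. Markers of T cells and intraepithelial lymphocytes were also high in Lgr5 AL 1: the 20 genes summed to 322 CPM there, 40.5 and 64.5 CPM in Lgr5 AL 2 and 3, and 179, 71.6 and 120 CPM in Lgr5 CR 1 to 3, and 15 of the 20 had their highest value of all libraries in it. The 14 myeloid markers summed to 13 to 36.9 CPM in Lgr5 AL and to 27.8 to 28.6 CPM in Lgr5 CR. Their part in the result was not tested.

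**Figure D3:**
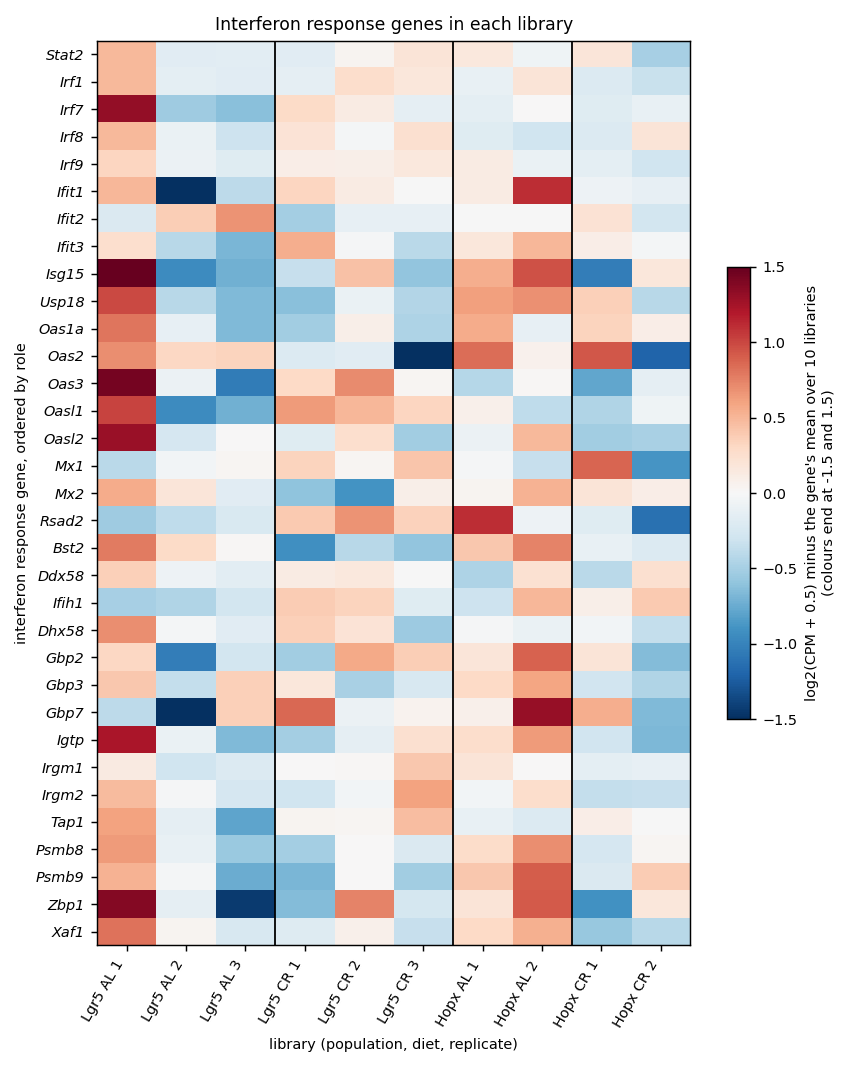
log2(CPM + 0.5) of the 33 genes in the 10 libraries, each minus the gene's mean over the libraries (red above, blue below), ordered by role. Lgr5 AL 1 is above the mean for 28 genes, and Hopx AL 1 and 2 for 21 and 23, against 12 and 9 in Hopx CR 1 and 2. These counts hold on the CPM scale, and the share of all genes was not counted. In TPM, Hopx AL 1 was the lowest of all libraries for several members, among them Irf1, Irf7, Irf8, Irf9 and Tap1.

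In Hopx cells, 27 of the 33 genes were lower in CR, with a median log2 fold change of -0.33 against -0.016 for all genes, yet no member passed the test. The edgeR test called 0.0126% of all genes, and Rsad2 and Xaf1 had an unadjusted p under 0.05, beside 8.52% of all genes. DESeq2 called 0 members, beside 0.922% of genes, and limma in TPM 0, beside 0.0253%. Both CR libraries lay under both AL libraries for 17 members (51.5%, beside 21.1% of all genes), and 1, Tap1, lay above (beside 21.5%). The 17 were Irf1, Irf9, Ifit1, Ifit3, Isg15, Usp18, Oasl2, Rsad2, Bst2, Gbp3, Igtp, Irgm1, Irgm2, Psmb8, Psmb9, Zbp1 and Xaf1.

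Scaling moved this count. In TPM, CR was lower without overlap for 5 members (Rsad2, Bst2, Gbp3, Igtp and Xaf1, 15.2%, beside 7.25% of all genes) and higher for Irf8, Oas1a and Tap1 (beside 35.6%). The whole distribution shifted on that scale: the median of all genes was 0.15 and that of the members -0.037, with 19 of 33 lower, so the members stood lower than the median gene on both scales. Immune marker genes were also lower: 19 of 20 T-cell and intraepithelial lymphocyte markers, 11 of 14 myeloid markers and 6 of 7 B-cell markers had a lower mean in Hopx CR. The T-cell markers summed to 281 and 126 CPM in Hopx AL 1 and 2 and to 28.5 and 93.3 CPM in Hopx CR 1 and 2. The myeloid sum was 104 and 115 CPM in AL and 55.1 and 38.6 CPM in CR. Much of that sum was 1 gene, Lyz2, at 89.75 and 90.23 CPM in Hopx AL 1 and 2 and 42.28 and 17.22 CPM in Hopx CR 1 and 2. Of the 3 lists, 4, 8 and 2 markers were at 0 in at least 1 library. Their part in the members' values was not tested.

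Within isolations, where 1 AL and 1 CR animal were processed together, the members did not move one way. In CPM, CR was lower for 28 of 33 members in isolation 1, 7 in isolation 2 and 8 in isolation 3. It was lower for 23 in isolation 4 and 28 in isolation 5, beside 46.2% to 50.4% of all genes. In TPM it was lower for 28, 11, 23, 10 and 28 members, beside 49.4%, 58.2%, 74.9%, 23.3% and 43.4% of all genes. Median differences in log2(CPM + 0.5) were -0.66, 0.23, 0.33, -0.23 and -0.53, and those of all genes lay between -0.0048 and 0.037. Isolations 2 and 3 thus went against 1, 4 and 5 in CPM. In TPM the members' medians were -0.52, 0.13, -0.18, 0.19 and -0.35 against 0, -0.059, -0.35, 0.28 and 0.046 for all genes, so that the members stood lower than the median gene in isolations 1, 4 and 5 and higher in 2 and 3 on either scale. The summed T-cell and intraepithelial lymphocyte markers had log2 ratios of CR to AL of -0.84, 0.82, 0.90, -3.30 and -0.43, with the same sign as the members' CPM medians in all 5 isolations, as had the myeloid sum (-0.37, 0.21, 1.09, -0.92 and -1.58). Against the members' TPM medians both sums had the opposite sign in isolations 3 and 4. In the Hopx libraries Lyz2 was a large part of the myeloid sum, as given above. In isolation 1 Lyz2 was 22.05 of 36.9 CPM in Lgr5 AL 1 and 14.03 of 28.6 CPM in Lgr5 CR 1. The signs of the myeloid sum without Lyz2 were not computed. The B-cell and plasma-cell sum had log2 ratios of -2.52, -1.21, 3.30, 0.20 and -0.82, opposite in sign to the members' CPM medians in isolations 2 and 4. Enterocyte markers were higher in CR in all 5 (0.067, 1.26, 2.09, 0.72 and 1.51). The Paneth-cell sum had log2 ratios of -0.13, -0.34, 1.99, -1.06 and -0.43, opposite in sign to the members' CPM median in isolation 2 only. The fibroblast and endothelium sum was low, at 3.74 to 8.69 CPM. Its log2 ratios of -0.78, 0.11, 0.24, -0.58 and -0.52 also had the signs of the members' CPM medians, so that sign pattern was not particular to immune markers. Their part in the members' values was not tested.

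**Figure D4:**
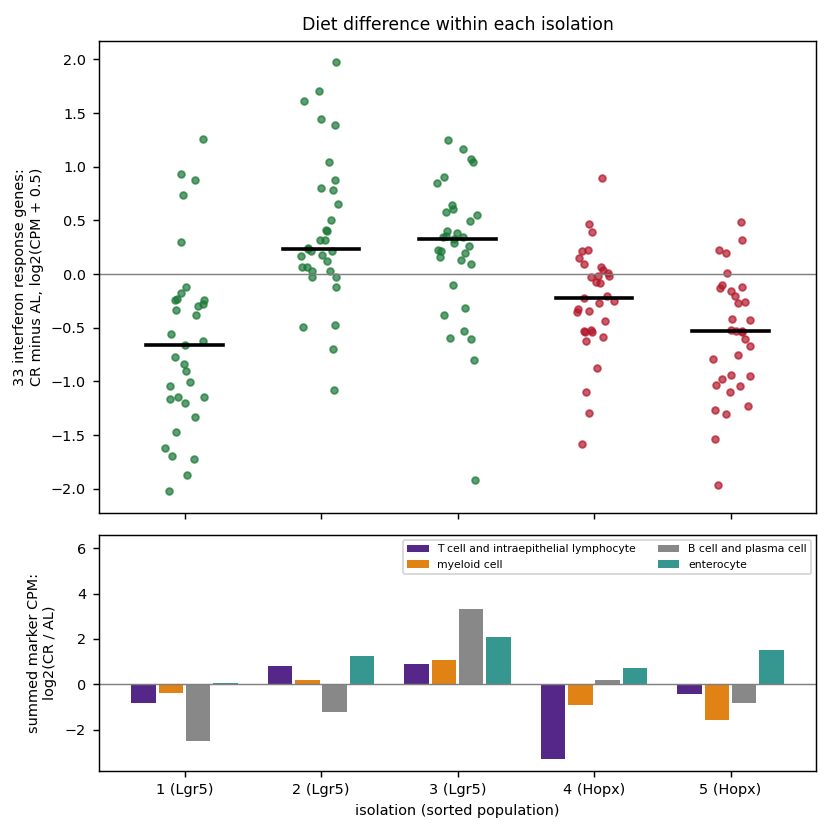
Top, CR minus AL in log2(CPM + 0.5) for each of the 33 genes within each isolation, with the median as a bar. Bottom, log2 ratio of CR to AL of summed marker CPM: T-cell and myeloid markers are lower in CR in isolations 1, 4 and 5 and higher in 2 and 3, as is the members' median on this CPM scale, whereas B-cell markers are not.

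Over both populations, 24 of 33 members were lower in CR, with a median of -0.20 against -0.00075 for all genes; without Lgr5 AL 1 it was 0.0047. No member passed the edgeR test (0.00631% of all genes did), and Oasl2, Bst2 and Xaf1 had an unadjusted p under 0.05, beside 14.5% of all genes. DESeq2 called Bst2, beside 4.31% of genes, and limma in TPM called 0, beside 0.316%. Bst2 and Gbp3 were lower in CR in all 5 isolations (6.06%, beside 7.66% of all genes), and 0 members were higher in all 5 (beside 8.71%). The diet effect did not pass a test of its difference between the populations for any member: edgeR called 0 of 33 (0.00631% of all genes), 1 had an unadjusted p under 0.05 (Rsad2, beside 4.72%), and DESeq2 and limma called 0 (beside 0.221% and 0.0189%).

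Between the sorted populations, no member passed the edgeR test. In AL, Hopx minus Lgr5 had a member median of 0.12 against 0.038 for all genes (-0.14 without Lgr5 AL 3 and 0.51 without Lgr5 AL 1), and edgeR called 0 members beside 0.0189% of all genes. Rsad2 had an unadjusted p under 0.05 (beside 17.7%), and DESeq2 called 0 members (beside 8.11%). In CR the median was -0.25 against 0.0019, with 24 of 33 lower in Hopx. There edgeR called 0 (beside 0.0189%), Rsad2 had an unadjusted p under 0.05 (beside 6.3%), and DESeq2 and limma called 0 (beside 1.1% and 0.0316%). Over both diets the median was -0.041 against 0.0051 (0.12 without Lgr5 AL 1), edgeR and DESeq2 called 0 members beside 1.33% and 9.41% of genes, and Psmb9 had an unadjusted p under 0.05 (beside 19.5%). No member separated the 4 Hopx from the 6 Lgr5 libraries in either direction (2.87% of all genes were higher and 1.93% lower). In TPM the medians over both diets were -0.28 for the members and -0.35 for all genes, and limma on log2(TPM + 1) called Irf1, Irf8, Irf9, Irgm1 and Tap1 lower in Hopx, with adjusted p from 0.0169 to 0.0446, beside 21.2% of all genes. In AL alone limma called Irf1, Irf8 and Irf9, beside 21.2%, where the medians were -0.53 for the members and -0.49 for all genes. Isolation and population cannot be told apart in any of these.

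Ligands come first in the pathway. Of 15 interferon genes in the tables, none had enough counts to be tested: 5 had no count in any library, and the highest, Ifnz, had 31 counts over all libraries. Ifng had 19 counts in 4 libraries and Ifnb1 12 counts in 3.

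Receptor transcripts were present, and all 6 had a higher fitted mean under CR in both populations, in CPM and in TPM. Their medians in CPM were 0.36 in Lgr5 and 0.24 in Hopx cells, against 0.017 and -0.016 for all genes. In TPM the medians of all genes were -0.11 in Lgr5 and 0.15 in Hopx cells, so in Hopx cells the median gene was also higher on that scale. None passed the edgeR test, with 2 at an unadjusted p under 0.05 in Lgr5 cells (beside 9.78% of all genes) and 1 in Hopx cells (beside 8.52%). Ifngr1, the ligand-binding chain of the interferon gamma receptor, was at 201, 169 and 188 CPM in Lgr5 AL 1 to 3, 246, 238 and 219 in Lgr5 CR 1 to 3, 148 and 182 in Hopx AL 1 and 2, and 224 and 250.1 in Hopx CR 1 and 2. Every CR library lay above every AL library for Ifngr1 in CPM, whereas in TPM the Lgr5 groups overlapped, and the log2 fold change over both populations was 0.43 (SE 0.12, edgeR adjusted p = 0.18); DESeq2 called it in that comparison, beside 4.31% of genes. Ifnlr1, the epithelial receptor chain for type III interferon, was at 10.3, 6.11 and 6.5 CPM in Lgr5 AL 1 to 3, 16.8, 10.8 and 11.8 in Lgr5 CR 1 to 3, 9.86 and 5.52 in Hopx AL 1 and 2, and 9.25 and 8.44 in Hopx CR 1 and 2. Its Lgr5 CR values all exceeded Lgr5 AL, whereas the Hopx groups overlapped. The other receptor chains, with their log2 fold changes over both populations, were Ifnar1 at 0.23 (SE 0.15), Ifnar2 at 0.40 (SE 0.22), Ifngr2 at 0.26 (SE 0.14) and Il10rb at 0.15 (SE 0.19). In TPM, Ifngr2 and Ifngr1 were the most abundant chains, at 74.9 to 209 and 49.8 to 165 TPM.

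Among 14 signal transducers and their inhibitors, 9 had a higher and 5 a lower fitted mean in Lgr5 CR, and 7 of each in Hopx CR; in TPM 5 were higher in Lgr5 CR and 10 in Hopx CR. None passed the edgeR test, and 2 higher and 2 lower had an unadjusted p under 0.05 in Lgr5 CR, beside 9.78% of all genes. DESeq2 called Ptpn6 and Socs3 there, beside 2.45% of genes, and limma only Socs3, beside 0.12%. Over both populations DESeq2 and limma called Socs3, beside 4.31% and 0.316%. Socs3, which inhibits JAK kinases, was at 21.1, 11.6 and 8.94 CPM in Lgr5 AL 1 to 3, 78.5, 79.5 and 106 in Lgr5 CR 1 to 3, 27.2 and 16.7 in Hopx AL 1 and 2, and 41.4 and 68.4 in Hopx CR 1 and 2. All CR libraries were above all AL libraries in both populations, and the log2 fold change was 2.66 (SE 0.35, edgeR adjusted p = 0.0816) in Lgr5 and 1.32 (SE 0.41) in Hopx cells. Ptpn6, a phosphatase that damps JAK signalling, had a log2 fold change of -0.99 (SE 0.28, edgeR adjusted p = 0.273) in Lgr5 cells. Jak2 was higher in CR in all 5 isolations in CPM, beside 8.71% of all genes, with 0.68 (SE 0.20, edgeR adjusted p = 0.201) over both populations. In TPM Jak2 was slightly lower in CR in isolation 3, at 18.6 TPM in Lgr5 AL 3 and 18.3 in Lgr5 CR 3. Jak1 had 0.11 (SE 0.13) over both populations. Tyk2 ranged from 0 to 3.11 CPM, too low for a fitted fold change to be given.

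None of the 5 transcription factors among the members passed the test; 4 were lower in Hopx CR in CPM but 1 in TPM. Stat2, which type I and type III interferons activate, was at 41, 25.8 and 26 CPM in Lgr5 AL 1 to 3, 25.8, 30.04 and 33.4 in Lgr5 CR 1 to 3, 32.4 and 27.9 in Hopx AL 1 and 2, and 33.2 and 20.6 in Hopx CR 1 and 2. Irf9, which gives the complex its DNA contact, was at 58, 43.5 and 40.8 CPM in Lgr5 AL 1 to 3, 49.4, 49.2 and 51.8 in Lgr5 CR 1 to 3, 50.3 and 43.2 in Hopx AL 1 and 2, and 41.6 and 37.6 in Hopx CR 1 and 2. For both, AL and CR overlapped in Lgr5 cells; in Hopx cells Stat2 overlapped and Irf9 was lower in CR, with a log2 fold change of -0.24 that was 0.046 in TPM. Irf7, the factor that amplifies type I interferon production, was at 137, 37.8 and 35.2 CPM in Lgr5 AL 1 to 3, 66.6, 59.7 and 49.8 in Lgr5 CR 1 to 3, 49.2 and 55 in Hopx AL 1 and 2, and 48.2 and 50.7 in Hopx CR 1 and 2. Lgr5 AL 1 stood apart, while the other 9 libraries lay between 35.2 and 66.6 CPM. Irf1, an interferon gamma target whose gamma-activated site is shown above, was at 320.4, 206 and 202 CPM in Lgr5 AL 1 to 3, 208, 274 and 258 in Lgr5 CR 1 to 3, 210.5 and 260.1 in Hopx AL 1 and 2, and 198 and 180.3 in Hopx CR 1 and 2. Its log2 fold changes were 0.021 (SE 0.21) in Lgr5 and -0.31 (SE 0.26) in Hopx cells, against -0.16 and -0.021 in TPM. Irf8 ranged from 136 CPM (Lgr5 AL 3) to 234 CPM (Lgr5 AL 1). Adjusted p for these 5 genes (edgeR) was at least 0.695 in every comparison of diets.

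Antiviral effectors included the 2 members whose diet groups were apart in both populations in CPM. In TPM the diet groups of Xaf1 were apart in both populations as well. The share of all genes apart in both populations was not counted. Bst2 encodes tetherin, which holds budding virus at the cell surface. It was at 10.6, 7.43 and 6.1 CPM in Lgr5 AL 1 to 3, 2.93, 4.38 and 3.83 in Lgr5 CR 1 to 3, 8.1 and 10.4 in Hopx AL 1 and 2, and 5.51 and 5.15 in Hopx CR 1 and 2. AL and CR did not overlap in either population, and CR was lower in all 5 isolations, by -1.70, -0.70, -0.61, -0.52 and -0.95 in log2(CPM + 0.5). The log2 fold change was -1.12 (SE 0.30, edgeR adjusted p = 0.261) in Lgr5 cells, -0.80 (SE 0.37) in Hopx cells and -0.96 (SE 0.24, edgeR adjusted p = 0.14) over both. DESeq2 gave adjusted p = 0.0144 in Lgr5 cells and 0.00423 over both. In TPM the groups did not overlap either: Bst2 was at 20.6, 14.9 and 17.8 TPM in Lgr5 AL 1 to 3, 5.73, 8.2 and 7.75 in Lgr5 CR 1 to 3, 9.06 and 15.6 in Hopx AL 1 and 2, and 8.56 and 8.28 in Hopx CR 1 and 2.

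Rsad2 encodes viperin, which makes a nucleotide that stops viral RNA polymerases. It was at 1.21, 1.41 and 1.63 CPM in Lgr5 AL 1 to 3, 2.78, 3.45 and 2.66 in Lgr5 CR 1 to 3, 4.87 and 1.85 in Hopx AL 1 and 2, and 1.69 and 0.647 in Hopx CR 1 and 2. All Lgr5 CR libraries lay above all Lgr5 AL libraries, and both Hopx CR libraries lay under both Hopx AL libraries. Differences in log2(CPM + 0.5) were 0.93, 1.05 and 0.57 in the Lgr5 isolations and -1.29 and -1.04 in the Hopx isolations. The log2 fold change was 1.06 (SE 0.50) in Lgr5 and -1.51 (SE 0.62) in Hopx cells, and their difference of -2.58 (SE 0.80, edgeR adjusted p = 1) did not pass the test. Its level was at most 1.08 TPM, and the same separation held in TPM (0.391, 0.474 and 0.803 TPM in Lgr5 AL 1 to 3, 0.904, 1.08 and 0.908 in Lgr5 CR 1 to 3, 0.914 and 0.465 in Hopx AL 1 and 2, and 0.442 and 0.173 in Hopx CR 1 and 2).

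Ifit1, which binds viral RNA lacking host cap methylation, was at 15.6, 3.31 and 8.21 CPM in Lgr5 AL 1 to 3, 13.8, 12 and 10.8 in Lgr5 CR 1 to 3, 12 and 24.1 in Hopx AL 1 and 2, and 10.4 and 9.98 in Hopx CR 1 and 2. Lgr5 AL 2 was lowest and Hopx AL 2 highest, and AL spanned the CR values in Lgr5 cells, whereas Hopx CR lay under Hopx AL. Oas1a, which makes the second messenger that activates RNase L, was at 53.2, 27.8 and 18.9 CPM in Lgr5 AL 1 to 3, 20.9, 32.2 and 21.8 in Lgr5 CR 1 to 3, 44.8 and 27.7 in Hopx AL 1 and 2, and 38.2 and 32.5 in Hopx CR 1 and 2, and its groups overlapped in both populations in CPM. Among the other family members Oasl2 had the smallest p over both populations, with a log2 fold change of -0.69 (SE 0.30, edgeR adjusted p = 0.334). Oasl2 was at 101, 34.3 and 41.2 CPM in Lgr5 AL 1 to 3, 36.1, 48.9 and 28.4 in Lgr5 CR 1 to 3, 38.6 and 57.5 in Hopx AL 1 and 2, and 28.4 and 29 in Hopx CR 1 and 2, with Lgr5 AL 1 far above the rest and the Hopx groups apart. Oas3, of the same enzyme family as Oas1a, was at 30.4, 10.2 and 5 CPM in Lgr5 AL 1 to 3, 13.5, 18.2 and 11.1 in Lgr5 CR 1 to 3, 7.97 and 11 in Hopx AL 1 and 2, and 6.13 and 9.85 in Hopx CR 1 and 2. Lgr5 AL 1 was highest and the diet groups overlapped in both populations, and Hopx against Lgr5 over both diets had a log2 difference of -0.76 (SE 0.44, edgeR adjusted p = 0.385). Oasl1 ranged from 22.1 CPM (Lgr5 AL 2) to 87 CPM (Lgr5 AL 1). The remaining effectors were low: Ifit2 from 1.76 CPM (Lgr5 CR 1) to 4.67 CPM (Lgr5 AL 3), Ifit3 from 2.36 CPM (Lgr5 AL 3) to 6.2 CPM (Lgr5 CR 1), Oas2 from 0.181 CPM (Lgr5 CR 3) to 3.4 CPM (Hopx CR 1), Mx1 from 0.832 CPM (Hopx CR 2) to 4 CPM (Hopx CR 1) and Mx2 from 0.0996 CPM (Lgr5 CR 2) to 1.14 CPM (Lgr5 AL 1). Over the 12 effectors, 7 were lower in Lgr5 CR and 10 in Hopx CR, against 6 and 7 in TPM.

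Isg15 is a ubiquitin-like protein attached to other proteins during the response. It was at 21, 3.38 and 4.02 CPM in Lgr5 AL 1 to 3, 5.37, 9.63 and 4.45 in Lgr5 CR 1 to 3, 10.3 and 13.9 in Hopx AL 1 and 2, and 3.12 and 7.86 in Hopx CR 1 and 2. Lgr5 AL 1 held the highest value and Hopx CR 1 the lowest; the Lgr5 groups overlapped, and both Hopx CR libraries lay under both Hopx AL libraries. The log2 fold changes were -0.55 (SE 0.68) and -1.15 (SE 0.83, edgeR adjusted p = 0.723) in Lgr5 and Hopx cells. Usp18, which removes ISG15 and blocks the type I receptor, ranged from 10.1 CPM (Lgr5 AL 3) to 33.1 CPM (Lgr5 AL 1) and had fold changes of -0.56 and -0.64 on the log2 scale.

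Of the RNA sensors, Ifih1 (MDA5, a sensor of long double-stranded RNA) was higher in every Lgr5 CR library. It was at 15.7, 16.2 and 18.4 CPM in Lgr5 AL 1 to 3, 29.3, 28.4 and 19.6 in Lgr5 CR 1 to 3, 18 and 31.8 in Hopx AL 1 and 2, and 23.8 and 29.6 in Hopx CR 1 and 2. Lgr5 CR 3 exceeded Lgr5 AL 3 by little, and the Hopx groups overlapped. The log2 fold change was 0.62 (SE 0.25, edgeR adjusted p = 0.471) in Lgr5 and 0.10 (SE 0.31) in Hopx cells, and in TPM the Lgr5 groups overlapped. Ddx58 (RIG-I) ranged from 22.4 CPM (Hopx AL 1) to 40.04 CPM (Lgr5 AL 1) and Dhx58 (LGP2) from 5.63 CPM (Lgr5 CR 3) to 14 CPM (Lgr5 AL 1).

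Interferon-induced GTPases act on membranes that enclose pathogens. All 6 members were lower in Hopx CR, with log2 fold changes from -1.11 (Gbp3) to -0.24 (Irgm1), and 2 of 6 in Lgr5 CR. In TPM 5 were lower in Hopx CR, with Irgm1 at a difference of 0.048. Igtp was at 78.2, 31 and 20.8 CPM in Lgr5 AL 1 to 3, 23.3, 30.4 and 39.4 in Lgr5 CR 1 to 3, 39.9 and 52 in Hopx AL 1 and 2, and 27.3 and 20.8 in Hopx CR 1 and 2. Lgr5 AL 1 stood apart for Igtp, and the Hopx groups did not overlap. Irgm1 was at 73.1, 54.1 and 57.7 CPM in Lgr5 AL 1 to 3, 67.2, 67.6 and 88.2 in Lgr5 CR 1 to 3, 76.4 and 67.1 in Hopx AL 1 and 2, and 60.2 and 61.3 in Hopx CR 1 and 2, and Irgm2 at 33.4, 23.7 and 20.1 CPM in Lgr5 AL 1 to 3, 19.3, 23.3 and 36.7 in Lgr5 CR 1 to 3, 23.3 and 28.8 in Hopx AL 1 and 2, and 18.6 and 18.7 in Hopx CR 1 and 2. Lgr5 CR 3 was highest for both, and both were lower in Hopx CR without overlap in CPM but not in TPM. Gbp2, a guanylate-binding protein, was at 1.78, 0.393 and 1.02 CPM in Lgr5 AL 1 to 3, 0.778, 2.22 and 1.88 in Lgr5 CR 1 to 3, 1.58 and 2.89 in Hopx AL 1 and 2, and 1.6 and 0.67 in Hopx CR 1 and 2, and its groups overlapped in both populations. Gbp3 ranged from 0.83 CPM (Lgr5 CR 2) to 2.29 CPM (Hopx AL 2) and Gbp7 from 0.278 CPM (Lgr5 AL 2) to 7.48 CPM (Hopx AL 2).

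Antigen-processing genes had the highest summed TPM. Psmb8 and Psmb9 encode catalytic subunits of the immunoproteasome, and Tap1 a subunit of the peptide transporter; Tap1 and Psmb9 are adjacent genes that start head to head on chromosome 17. Psmb8 was at 432, 257 and 189 CPM in Lgr5 AL 1 to 3, 195, 279.9 and 238 in Lgr5 CR 1 to 3, 338 and 451 in Hopx AL 1 and 2, and 233 and 283 in Hopx CR 1 and 2, and Psmb9 at 108, 73.9 and 44.8 CPM in Lgr5 AL 1 to 3, 46.7, 75.5 and 52.3 in Lgr5 CR 1 to 3, 99.8 and 142 in Hopx AL 1 and 2, and 64.6 and 98 in Hopx CR 1 and 2. For both, Hopx CR lay under Hopx AL without overlap in CPM, though not in TPM, and the Lgr5 groups overlapped. Tap1 was at 136, 81.6 and 51.8 CPM in Lgr5 AL 1 to 3, 92.3, 91.8 and 124 in Lgr5 CR 1 to 3, 83 and 78 in Hopx AL 1 and 2, and 96.2 and 89.6 in Hopx CR 1 and 2. Tap1 thus ran opposite to its neighbour in Hopx cells, where CR was above AL, with log2 fold changes of 0.21 (SE 0.36) for Tap1 and -0.57 (SE 0.40) for Psmb9. None of these passed the test (edgeR adjusted p from 0.388 to 0.897 in the comparisons of diets within and over both populations).

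Zbp1, which senses Z-form nucleic acid and starts necroptosis, was at 47.8, 16.4 and 6.38 CPM in Lgr5 AL 1 to 3, 11.4, 30.6 and 15 in Lgr5 CR 1 to 3, 20.7 and 34.7 in Hopx AL 1 and 2, and 9.4 and 20.4 in Hopx CR 1 and 2. The 3 Lgr5 AL libraries alone ran from 6.38 to 47.8 CPM and spanned Lgr5 CR. Xaf1, a pro-apoptotic partner of XIAP, was at 17.8, 10.2 and 8.25 CPM in Lgr5 AL 1 to 3, 8.61, 10.4 and 7.63 in Lgr5 CR 1 to 3, 12.3 and 14.5 in Hopx AL 1 and 2, and 6.49 and 7.3 in Hopx CR 1 and 2. Both genes were lower in Hopx CR than in Hopx AL without overlap in CPM, and Xaf1 also in TPM. Xaf1 had the smallest p of the members in Hopx cells, with a log2 fold change of -0.96 (SE 0.37, edgeR adjusted p = 0.541), and over both populations it was -0.70 (SE 0.24, edgeR adjusted p = 0.247).

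**Figure D5:**
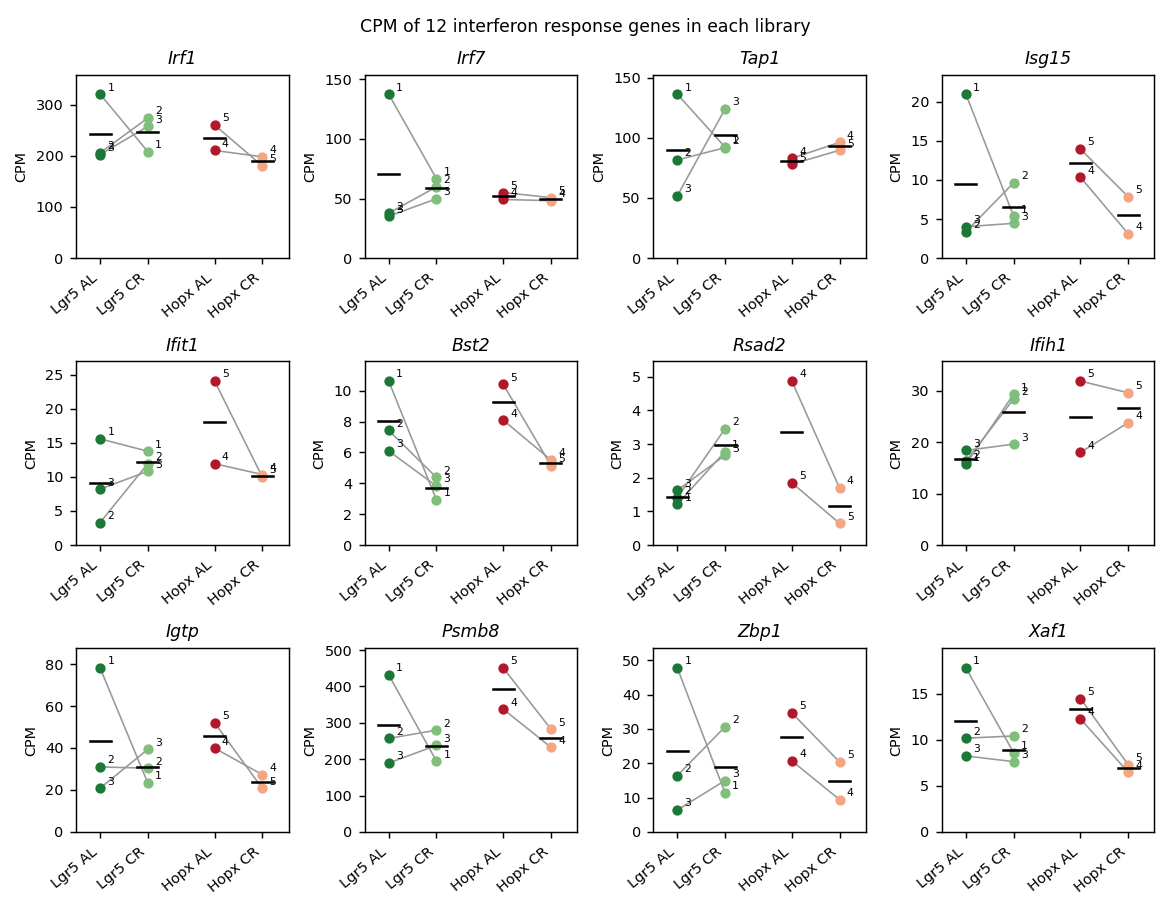
CPM of 12 members in each library, with points numbered by isolation, grey lines joining the AL and CR animal of 1 isolation, and black bars for group means. Bst2 is lower in CR in all 5 isolations, Rsad2 is higher in CR in isolations 1 to 3 and lower in 4 and 5, and Lgr5 AL 1 (isolation 1) is the highest point for Irf1, Irf7, Tap1, Isg15, Bst2, Igtp, Zbp1 and Xaf1.

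No gene of the related lists passed the edgeR test under diet. Of 45 tested among 46 further antiviral genes, 26 were lower in Lgr5 CR and 28 in Hopx CR (31 and 17 in TPM), and DESeq2 called Ifi44 in Lgr5 cells (beside 2.45% of genes) and over both populations (beside 4.31%). Ifi44, an interferon-induced cytoplasmic protein, was at 3.14, 2.41 and 3.62 CPM in Lgr5 AL 1 to 3, 0.415, 0.896 and 0.207 in Lgr5 CR 1 to 3, 1.47 and 1.49 in Hopx AL 1 and 2, and 0.254 and 1.09 in Hopx CR 1 and 2. In CPM, Lgr5 CR lay under Lgr5 AL and Hopx CR under Hopx AL in every library. The log2 fold change was -2.62 (SE 0.70, edgeR adjusted p = 0.254) in Lgr5 cells. In TPM the Hopx groups overlapped, at 0.39 and 0.53 TPM in Hopx AL 1 and 2 and 0.094 and 0.41 in Hopx CR 1 and 2. Ifitm3, which blocks viral entry, was at 219, 308 and 201 CPM in Lgr5 AL 1 to 3, 129, 246 and 199.6 in Lgr5 CR 1 to 3, 173 and 286 in Hopx AL 1 and 2, and 95.8 and 122 in Hopx CR 1 and 2. It was lower in CR in all 5 isolations, beside 7.66% of all genes, but its Lgr5 groups overlapped. Over both populations the log2 fold change of Ifitm3 was -0.71 (SE 0.22, edgeR adjusted p = 0.226). Of 10 tested among 12 further GTPases, 6 were lower in Lgr5 CR and 9 in Hopx CR, with medians of -0.36 and -1.49; in TPM the counts were again 6 and 9. DESeq2 called Tgtp1 in Hopx cells (beside 0.922% of genes) and Tgtp1 and Gbp8 over both populations (beside 4.31%), where edgeR gave Gbp8 a log2 fold change of -2.64 (SE 0.85, edgeR adjusted p = 0.229). Tgtp1 was at 15, 2.43 and 3.41 CPM in Lgr5 AL 1 to 3, 3.4, 2.62 and 4.99 in Lgr5 CR 1 to 3, 8.11 and 6.41 in Hopx AL 1 and 2, and 0.931 and 0.578 in Hopx CR 1 and 2, with both Hopx CR libraries lowest. Its log2 fold change was -3.25 (SE 0.83, edgeR adjusted p = 0.464) in Hopx cells, and it has a near-identical copy, Tgtp2, so its counts are uncertain. Of 23 sensing genes tested among 25, 12 were lower in Lgr5 CR and 9 in Hopx CR (14 and 6 in TPM). Nlrc5, the transactivator of MHC class I genes, was at 1.18, 0.463 and 0.284 CPM in Lgr5 AL 1 to 3, 2.52, 2.69 and 5.94 in Lgr5 CR 1 to 3, 5.37 and 3.44 in Hopx AL 1 and 2, and 1.73 and 1.92 in Hopx CR 1 and 2. Nlrc5 was higher in Lgr5 CR and lower in Hopx CR without overlap, with 2.54 (SE 0.60, edgeR adjusted p = 0.213) in Lgr5 cells and a difference between populations of -3.81 (SE 0.92, edgeR adjusted p = 1). DESeq2 called Nlrc5 in Lgr5 cells (beside 2.45% of genes) and for that difference (beside 0.221%). It also called Tbk1, a kinase that activates interferon regulatory factors, over both populations (beside 4.31%), where edgeR gave 0.59 (SE 0.16, edgeR adjusted p = 0.18). Among 22 MHC class I presentation genes, none had an unadjusted p under 0.05 under diet, with 16 higher in Lgr5 CR and 12 higher in Hopx CR (11 and 16 in TPM).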

How the data were processed

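The authors deposited estimated counts per gene and TPM for the same genes and libraries. Both kallisto and edgeR appear, without versions, in the submitters' processing notes. Those notes give GRCh38, a human assembly, although the symbols are those of mouse, and the annotation is not given in the sources used here. Estimated counts were rounded, genes kept by filterByExpr (minimum count 10), and tested with edgeR 4.0.16 (R 4.3.3; TMM scaling, quasi-likelihood test, 1 model of 4 groups, 7 contrasts, Benjamini-Hochberg adjustment over 15839 genes). CPM is TMM-scaled, with 0.5 added before log2. Samples were grouped by the labels, and 0 value columns were left unmapped. Identical library pairs numbered 0. The scripts were tested on simulated data. Alternatives were DESeq2 1.42.0, limma 3.58.1 on log2(TPM + 1) and log2(TPM + 0.1), RLE factors, other filters, only the groups compared, isolation as a block, and each library left out; DESeq2's missing adjusted p were left out. Non-overlap in TPM and without Lgr5 AL 1 was added after seeing the data.

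The labels give the isolation number, which marks a shared batch, so isolation pairs AL and CR animals; deviations from group means correlated within pairs at 0.0825, 0.208, 0.0712, 0.0447 and 0.0447 (the last 2 are the same value by construction). Separate animals are the replicates. Named in full were the fixed members Stat2, Irf9, Irf7, Irf1, Isg15, Ifit1, Bst2, Tap1, Psmb8, Oas1a, Zbp1 and Gbp2, the 3 members of smallest p in each contrast at 1 CPM or more, and set receptors and kinases. The rule for pathway lists also took the 2 genes of smallest p in each contrast; of these only some are printed, picked, like Igtp, after their values were seen. A gene of the pathway lists is not reported here. Members and lists were chosen with earlier results of these data known. Promoters are RefSeq's, on GRCm38.p6; no coordinates of the deposited data were used. 27 rows whose names had been turned into dates match no member.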

Additional observations from a re-analysis of the deposited data

Results flagged for a closer look

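Rsad2 and Ifit3 were the members for which, in CPM, every Lgr5 isolation was higher under CR and every Hopx isolation was lower. The share of all genes with this pattern was not counted. In TPM the pattern held for Rsad2 but not for Ifit3. Ifit3 was at 2.5 TPM in Lgr5 AL 3 and 2.2 in Lgr5 CR 3, and at 1.9 in Hopx AL 1 and 2.5 in Hopx CR 1. For Rsad2 the diet effect in Hopx minus that in Lgr5 cells was -2.58 on the log2 scale, and for Ifit3 it was -0.70. Neither difference passed the edgeR test of the interaction (adjusted p = 1 for both).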

How the results depend on the processing

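No alternative made a member pass the test under diet other than Bst2 in DESeq2 (1 member in Lgr5 cells and 1 over both populations) and Oasl1 without Lgr5 AL 1. That library held the highest Oasl1 value. Counts of all genes called, in the order Lgr5 diet, Hopx diet, diet over both, difference of diet effects, Hopx against Lgr5 in AL, in CR and over both diets, were 3, 2, 1, 1, 3, 3 and 211. They were 365, 140, 641, 35, 1157, 160 and 1400 with DESeq2, 83, 7, 117, 3, 194, 24 and 465 with no filter on low counts, 19, 4, 50, 3, 3359, 5 and 3350 with limma on log2(TPM + 1), and 23, 4, 62, 2, 3617, 12 and 3658 on log2(TPM + 0.1). RLE factors gave 1 in the Lgr5 diet comparison, a minimum of 1 CPM in 2 libraries gave 58 in AL, and using only the groups compared gave 12 in CR. With isolation as a replicate block the first 4 counts were 0, 0, 2 and 0, and no member's call changed. Leaving out 1 library gave 0 to 109, 1 to 3, 1 to 348, 1 to 2, 0 to 110, 1 to 7 and 22 to 293; the highest in the first, the third and the fifth came without Lgr5 AL 1, and the lowest in the last without Hopx AL 1.

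Both limma settings called 3 members lower in Hopx in AL and 5 over both diets. Members' medians in TPM, for pseudocounts of 1 and 0.1, were -0.037 and -0.038 (Hopx diet), -0.53 and -0.57 (AL), -0.42 and -0.54 (CR) and -0.28 and -0.57 (both diets). For the difference of the diet effects they were 0.12 and 0.14 in TPM, beside 0.288 and 0.396 for all genes. The main fit gave -0.312 there, beside -0.0428 for all genes. Ifih1 changed direction in TPM between the populations: -0.23 and -0.27 in AL, -0.22 and -0.25 over both diets. Leaving out 1 library, members called in Lgr5 cells numbered 0 to 1, and the median there ran from -0.33 (without Lgr5 AL 3) to 0.27 (without Lgr5 AL 1). The median ran from -0.49 to -0.29 for the Hopx diet, -0.30 to 0.0047 for diet over both, -0.70 to -0.062 for the difference, -0.14 to 0.51 in AL, -0.28 to -0.16 in CR and -0.11 to 0.12 over both diets. Members without overlap in TPM were 4 lower and 1 higher in Lgr5 CR, and 5 lower and 3 higher in Hopx CR. Without Lgr5 AL 1, 15 were higher in Lgr5 CR without overlap in CPM and 4 in TPM. The cause of these changes was not tested. In Hopx cells 2 libraries a group, and members under 1 TPM, limit what the test can resolve.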
